A study of Homo sapiens with 6 samples.

Results

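The 9 genes that stand at the centre of the epithelial-mesenchymal transition (EMT) were followed in A375 cells carrying an SLNCR plasmid or an empty plasmid. They were chosen by their symbols, with earlier results of these data known. They comprise 7 transcription factor genes (ZEB1, ZEB2, SNAI1, SNAI2, TWIST1, TWIST2 and TCF4) and the cadherin genes CDH1 and CDH2. All 9 had a row among the 18318 genes of the count table, and 8 of them were among the 12797 genes with enough reads to be tested. CDH1 was not.

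A375 is an established human melanoma line, and SLNCR, which RefSeq names LINC00673, is a non-coding RNA. The study asked which genes SLNCR regulates in these cells. There were 3 libraries of cells transfected with the full-length SLNCR plasmid and 3 of cells transfected with the empty pcDNA3.1 vector. Per the labels' protocols the plasmids carried a puromycin resistance gene and a CAG promoter, were delivered with a lipid reagent, and RNA was taken after 48 h in 2 µg/mL puromycin, so cells of both groups had been transfected and selected. All libraries come from 1 cell line with transient expression, and the labels call them biological replicates without saying how the cultures were separated, so p-values measure the spread between these libraries.

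In EMT, cells give up the junctions that tie an epithelial sheet together and take on a motile form. SNAI and ZEB zinc finger proteins and TWIST helix-loop-helix proteins bind E-box sequences and repress CDH1, the gene for the junction protein E-cadherin, while N-cadherin, encoded by CDH2, often takes its place. In melanocytes and melanoma the family is used differently from carcinoma: ZEB2 and SNAI2 are known from differentiated melanocytes, and ZEB1 and TWIST1 from dedifferentiated, invasive tumours. TCF4 is an E protein, a general dimerization partner of helix-loop-helix factors such as TWIST.

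Libraries held 9018886 to 10497547 counts in the genes used. The transfected RNA itself was counted at 1786, 2569 and 2040 reads in the SLNCR libraries and at 195, 194 and 193 in the empty vector libraries, 3.38 higher on a log2 scale (SE 0.147, adjusted p = 3.11e-05 in edgeR, and 3.38 with SE 0.201 and adjusted p = 0.054 with the correction for GC content described next). Counts leaned on base composition to a degree that differed between libraries. Slopes against transcript GC content were read on each library's log2 deviation from the mean of each gene over the 6 libraries. Per 10 percentage points they were -0.075, -0.028 and -0.165 in the SLNCR libraries. In the empty vector libraries they were 0.133, 0.094 and 0.042 (replicates 1 to 3 in each). These slopes are relative to the other libraries and are not slopes of expression itself. The slopes were negative in every SLNCR library and positive in every empty vector library, so the lean follows the groups. Values corrected for GC content library by library are given beside the uncorrected ones. The correction also takes out any difference between the groups that follows GC content. Where the lean comes from was not tested, so neither set of values is taken as the truer one. The transfected RNA had no GC value of its own, so the correction used the median GC content of the tested genes for it. The labels describe the cells as epithelial. Of 12 epithelial markers 11 had a row, and 8 of these, among them EPCAM, CDH1, KRT19, CLDN7 and ESRP1, had a mean below 10 reads, while KRT8, KRT18 and CLDN4 were expressed. None was at 0 in all 6 libraries. The summed level of these markers, nearly all of it KRT8 and KRT18, was 432 to 489 CPM (counts scaled to library size with TMM factors) in the SLNCR libraries and 544 to 606 CPM in the empty vector libraries. Of 10 melanoma and melanocyte lineage markers 8 had a row, with MITF and SOX10 expressed and PMEL and DCT below a mean of 10 reads. Their sum was 558 to 579 CPM with SLNCR and 591 to 615 CPM with the empty vector. Most of it was MCAM (278 to 291 CPM with SLNCR, 292 to 329 with the empty vector) and CSPG4 (171 to 179 and 189 to 195). MITF stood at 90.4 to 104 CPM with SLNCR and 76.5 to 93.2 CPM with the empty vector. Fibroblast markers summed to 14.9 to 16.4 CPM with SLNCR and 14.8 to 18.1 CPM with the empty vector, and immune markers to 3.61 to 5.57 CPM with SLNCR and 2.19 to 3.86 CPM with the empty vector. The sum of 7 abundant nuclear or structural RNAs was 30981 to 33213 CPM with SLNCR and 31614 to 36632 CPM with the empty vector. The part of these shifts in the results was not tested.

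A375 cells of both groups expressed the N-cadherin gene, with 0 to 2 reads per library for the E-cadherin gene, and SNAI1 was the most abundant of the transcription factor transcripts per unit length. Levels of different genes were compared as CPM per kilobase of the longest coding transcript, with SDs over 3 libraries. Which transcripts these cells use was not tested, and the order depends on the length taken. Not divided by length, ZEB1 (50.2 CPM with SLNCR, 42.2 with the empty vector) and TCF4 (37.6 and 34.1) stood above SNAI1 (22.9 and 21.0). CDH2 stood at 78.5 ± 0.748 with SLNCR and at 76.5 ± 2.23 with the empty vector. SNAI1 followed at 13.6 ± 1.02 with SLNCR and 12.5 ± 0.539 with the empty vector. CDH2 was thus far above every transcription factor. ZEB1 stood at 8.01 ± 0.716 with SLNCR and 6.74 ± 0.472 with the empty vector, and TWIST2 at 6.89 ± 0.671 with SLNCR and 9.16 ± 0.495 with the empty vector. TWIST1 stood at 5.41 ± 0.225 with SLNCR and 4.80 ± 0.439 with the empty vector, and TCF4 at 4.50 ± 0.301 with SLNCR and 4.09 ± 0.292 with the empty vector. The factors of differentiated melanocytes were the lowest of the 7. SNAI2 stood at 2.11 ± 0.662 with SLNCR and 1.88 ± 0.302 with the empty vector, and ZEB2 at 0.796 ± 0.187 with SLNCR and 0.719 ± 0.0454 with the empty vector. CDH1 stood at 0.0130 ± 0.0113 with SLNCR and 0.0292 ± 0.0135 with the empty vector. In each group the ranges of neighbours in this order did not overlap, except TWIST2 (6.18 to 7.52) and ZEB1 (7.48 to 8.82 CPM per kilobase) in the SLNCR libraries and TWIST1 (4.30 to 5.12) and TCF4 (3.81 to 4.40) in the empty vector libraries. The means of ZEB1 and TWIST2 thus changed order between the groups.

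Of the 8 tested genes, TWIST2 alone passed the test, and it fell. The other 7 did not pass at an edgeR adjusted p of 0.05, and all 7 had log2 fold changes above 0. Across all tested genes 16.5% passed in either direction, 8.84% higher and 7.67% lower, so 1 of 8 is near the background share. That share rests on which libraries are used: 1, 1 and 2 genes passed without SLNCR replicate 1, empty vector replicate 1 and empty vector replicate 2, and 3366 without SLNCR replicate 2, against 2112 with all 6 libraries. The median log2 fold change of the 8 genes was 0.14, against -0.01 over all tested genes. The groups did not overlap in CPM for 3 of the 8 genes (ZEB1, TWIST1 and TWIST2), as for 38.9% of all tested genes. In bulk RNA, fewer cells expressing a gene and less RNA per cell cannot be told apart.

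**Figure D1:**
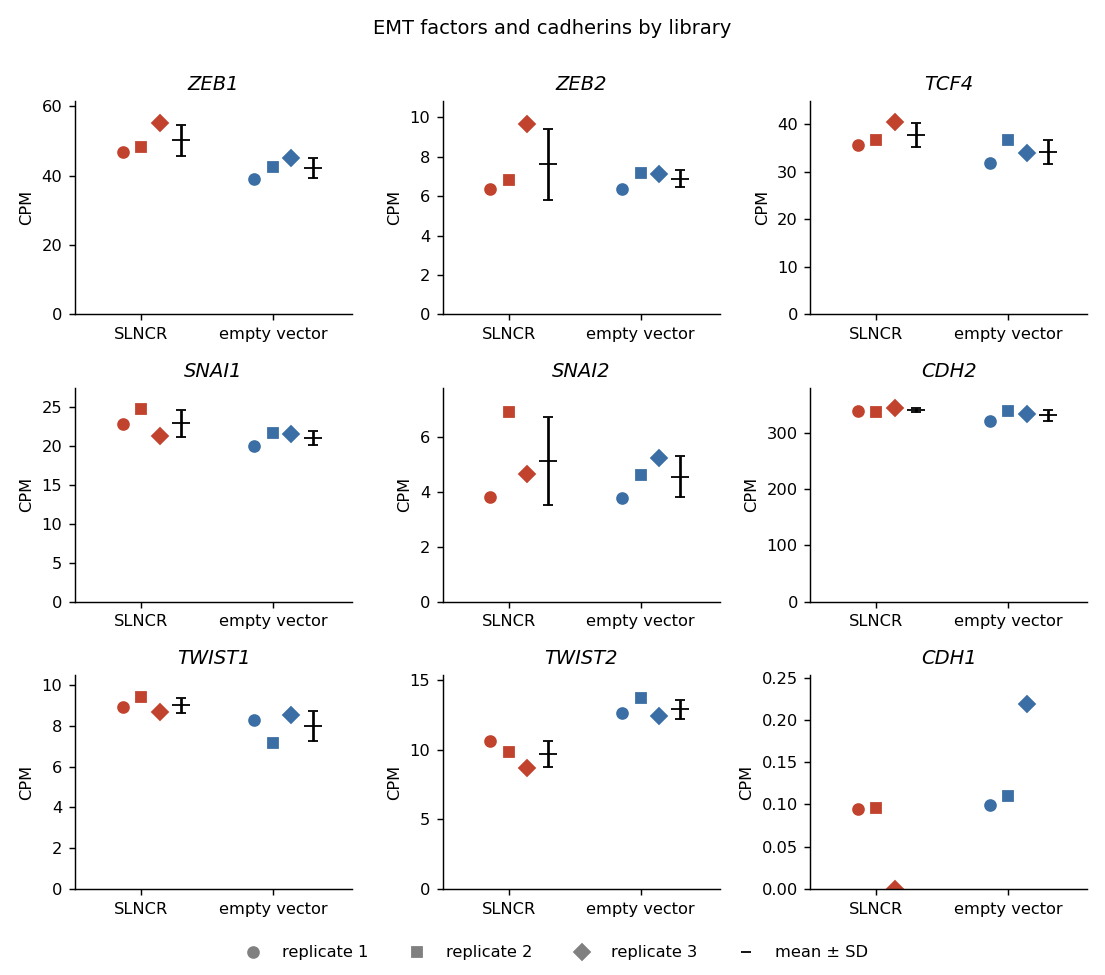
Expression of the 9 genes in each library, in CPM (linear axis from 0), with the SLNCR libraries in red and the empty vector libraries in blue. Symbols mark replicates and black bars the mean ± SD (n = 3, not drawn for CDH1, which was counted at 0 to 2 reads). TWIST2 lies lower in the 3 SLNCR libraries (8.68 to 10.6 CPM) than in the 3 empty vector libraries (12.4 to 13.7 CPM), while CDH2 lies between 321 and 344 CPM in all 6.

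The sequence these factors are known to bind was looked for in the promoters of the members, because ZEB1 and TWIST2 have the smallest p-values in the uncorrected fit. With the GC correction the smallest were those of SNAI1 and TWIST1 (unadjusted p = 0.00312 and 0.0252 in edgeR). RefSeq windows (GRCh38.p14) run from 250 bases before to 50 after a transcript start, and 21 of them belong to 5 of the 9 genes. SNAI1, SNAI2, TWIST1 and CDH1 had no window here and were not searched. The core E-box of SNAI and ZEB proteins was searched as CAGGTG and its reverse complement CACCTG, which covers both strands. It was present in 20.6% of all 35116 promoter windows and in 2 of the 21 member windows, both at ZEB1, which has 7 windows. The 10 windows of TCF4, the 2 of CDH2 and those of ZEB2 and TWIST2 held no match. The matching ZEB1 windows are chr10:31318167-31318466 and chr10:31318966-31319265, and the TWIST2 window is chr2:238847835-238848134, all on the plus strand. They are shown 5′ to 3′ with E-box matches in capitals, to set 3 matches in 1 ZEB1 window beside a TWIST2 window with 0.
ZEB1, first window: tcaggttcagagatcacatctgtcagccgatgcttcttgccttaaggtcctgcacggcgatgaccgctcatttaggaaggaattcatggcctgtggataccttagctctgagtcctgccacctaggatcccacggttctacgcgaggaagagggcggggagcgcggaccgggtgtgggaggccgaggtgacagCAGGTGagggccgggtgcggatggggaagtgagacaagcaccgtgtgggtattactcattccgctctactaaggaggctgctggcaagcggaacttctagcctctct
ZEB1, second matching window: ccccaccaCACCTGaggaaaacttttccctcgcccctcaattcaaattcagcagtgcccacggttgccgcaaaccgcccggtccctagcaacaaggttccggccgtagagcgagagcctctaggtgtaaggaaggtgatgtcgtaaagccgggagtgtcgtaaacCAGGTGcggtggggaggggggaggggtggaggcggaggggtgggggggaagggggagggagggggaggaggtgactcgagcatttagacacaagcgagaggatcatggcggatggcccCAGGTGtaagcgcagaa
TWIST2: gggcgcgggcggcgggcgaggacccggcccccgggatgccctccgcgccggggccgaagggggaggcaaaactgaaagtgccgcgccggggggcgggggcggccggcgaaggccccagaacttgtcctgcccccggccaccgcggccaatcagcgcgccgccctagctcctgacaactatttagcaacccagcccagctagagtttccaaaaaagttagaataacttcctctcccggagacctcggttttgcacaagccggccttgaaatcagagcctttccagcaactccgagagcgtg
In the first ZEB1 window the match begins at position -57 relative to the transcript start, and in the second the matches begin at positions -242, -85 and 34 relative to it. The windows shown have a GC content of 58.3%, 61.7% and 66.7%, and the 7 ZEB1 windows range between 42.0% and 72.3%. A match is a description of these letters and no measurement of binding.

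TWIST1 and TWIST2 encode closely related helix-loop-helix factors that drive mesenchymal programmes. TWIST2 (ENSG00000233608, chromosome 2, 238848032 to 238910543, plus strand, GENCODE release 29, GRCh38) was counted at 111, 102 and 78 reads in SLNCR replicates 1, 2 and 3, against 126, 124 and 113 reads in the empty vector replicates in the same order. All 3 SLNCR libraries were lower than every empty vector library, and SLNCR replicate 3 was the lowest. The mean was 9.68 ± 0.942 CPM with SLNCR and 12.9 ± 0.695 CPM with the empty vector (SD, n = 3 each). TWIST2 fell by 0.40 on the log2 scale (SE 0.126, adjusted p = 0.0382 in edgeR), which is 0.756-fold with a 95% interval from 0.629 to 0.908. At about 109 reads per library, counting error alone has a coefficient of variation of 9.58%. Of the 6 fits that left out 1 library it passed only in the one without SLNCR replicate 2 (adjusted p = 0.0422 in edgeR), and the adjusted p was 0.0584 to 0.138 without any 1 of the other 5. With the GC correction TWIST2, whose longest transcript has 57.0% GC, stood at -0.25 (SE 0.123, adjusted p = 0.348 in edgeR).

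TWIST1 (ENSG00000122691, chromosome 7, 19020991 to 19117672, minus strand) was counted at 94, 98 and 78 reads in the SLNCR libraries and at 83, 65 and 78 in the empty vector libraries. Its mean was 9.01 ± 0.375 CPM with SLNCR and 7.99 ± 0.732 CPM with the empty vector (SD, n = 3 each). The SLNCR values (8.68 to 9.42 CPM) lay above the empty vector values (7.16 to 8.54 CPM), by a margin far narrower than the counting error of 11.0%. The log2 fold change of 0.17 did not pass (SE 0.139, 95% interval -0.12 to 0.47, adjusted p = 0.39 in edgeR). TWIST1 has nearly the GC content of TWIST2 (57.2%), and with the GC correction it stood at 0.33 (SE 0.139, 95% interval 0.05 to 0.62, unadjusted p = 0.0252, adjusted p = 0.255 in edgeR). Both genes fall in the same decile of tested genes by GC content, in which 0 of 1279 genes were higher, 13.2% were lower and the median log2 fold change was -0.15.

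The balance between the TWIST genes does not depend on library scaling, and the 2 genes have nearly equal GC content. It was computed after the values were seen. There were 0.85, 0.96 and 1.0 TWIST1 reads per TWIST2 read in SLNCR replicates 1, 2 and 3, against 0.66, 0.52 and 0.69 in the empty vector libraries. The groups did not overlap. The mean log2 ratio was -0.10 ± 0.13 with SLNCR and -0.69 ± 0.21 with the empty vector (SD, n = 3 each), a difference of 0.59 or 1.51-fold, with two-sided exact permutation p = 0.1, the smallest that 3 against 3 libraries can give. Each gene had already separated the groups in CPM, with TWIST1 higher and TWIST2 lower in the SLNCR libraries. The ratio therefore had to separate the groups too, and its p had to be the smallest possible. Neither adds to the values of the 2 genes. The difference of the mean log2 ratio stayed between 0.47 and 0.67 when each library was left out in turn.

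SNAI1 and SNAI2 encode the zinc finger repressors Snail and Slug. SNAI1 (ENSG00000124216, chromosome 20, 49982999 to 49988886, plus strand) was counted at 240, 257 and 191 reads in the SLNCR libraries and at 200, 196 and 196 in the empty vector libraries. It averaged 22.9 ± 1.72 CPM with SLNCR and 21.0 ± 0.909 CPM with the empty vector (SD, n = 3 each), and SLNCR replicate 3, at 21.3 CPM, lay within the empty vector range of 20.0 to 21.6 CPM. The log2 fold change of 0.13 did not pass (SE 0.0968, 95% interval -0.07 to 0.33, adjusted p = 0.351 in edgeR). SNAI1 has the highest GC content of the tested members, 58.2%, and in its decile of tested genes 1 of 1279 was higher, 255 were lower and the median log2 fold change was -0.20. Corrected for GC content, SNAI1 stood at 0.31 (SE 0.0919, 95% interval 0.11 to 0.50). This corresponds to an unadjusted p of 0.00312 and an edgeR adjusted p of 0.125, so it did not pass either, in a fit where 2 of 12797 genes did (0.0156%). Without each library in turn the corrected value lay between 0.24 and 0.35.

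SNAI1 was also set against TWIST2 within each library, again after the values were seen. There were 2.16, 2.52 and 2.45 SNAI1 reads per TWIST2 read in SLNCR replicates 1, 2 and 3, against 1.59, 1.58 and 1.73 in the empty vector libraries. The groups did not overlap, and the log2 ratio differed by 0.54 (two-sided exact permutation p = 0.1, the smallest possible). TWIST2 had already separated the groups in CPM by itself, so this ratio adds little to it. SNAI1 and the TWIST genes are all GC-rich, and TWIST2 differed in direction from the other 2.

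SNAI2 (ENSG00000019549, chromosome 8, 48917604 to 48921740, minus strand) was counted at 40, 72 and 42 reads in the SLNCR libraries and at 38, 42 and 48 in the empty vector libraries. A single library, SLNCR replicate 2, stood above the other 5, which overlapped. The log2 fold change was 0.18 (SE 0.225, 95% interval -0.29 to 0.65, adjusted p = 0.593 in edgeR), and without SLNCR replicate 2 it was -0.11. The interval covers folds from 0.815 to 1.57, so a rise or a fall within that range is not excluded. Counting error alone has a coefficient of variation of 14.6%, and the SLNCR libraries spread more widely, at 5.13 ± 1.61 CPM (SD, n = 3).

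ZEB1 and ZEB2 encode large zinc finger repressors with a homeodomain. ZEB1 (ENSG00000148516, chromosome 10, 31318495 to 31529814, plus strand) was counted at 493, 504 and 497 reads in the SLNCR libraries and at 392, 387 and 411 in the empty vector libraries. All 3 SLNCR libraries (46.9, 48.4 and 55.3 CPM) were above the empty vector libraries (39.1, 42.6 and 45.0 CPM). The log2 fold change of 0.25 (SE 0.0834, 95% interval 0.07 to 0.42) had an edgeR adjusted p of 0.0507, just outside the threshold. It passed with size factors in the manner of DESeq2 (adjusted p = 0.049 in edgeR), without a filter on low counts (0.0137), and without SLNCR replicate 2 (0.0311) or empty vector replicate 3 (0.0498), while the adjusted p was 0.075 to 0.225 without any 1 of the other 4 libraries. The longest ZEB1 transcript has 38.5% GC, and in its decile of tested genes 24.9% were higher and 0.313% lower, at a median log2 fold change of 0.18. After GC correction ZEB1 stood at 0.05 (SE 0.0689, 95% interval -0.09 to 0.20, adjusted p = 0.745 in edgeR). The corrected interval ends at 1.15-fold. ZEB1 overlaps the antisense gene ZEB1-AS1, counted at a mean of 42.2 reads per library, and the strand setting is not given in the sources used here, so reads in the shared stretch are uncertain between them.

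ZEB2 (ENSG00000169554, chromosome 2, 144364364 to 144524583, minus strand) was counted at 67, 71 and 87 reads in the SLNCR libraries and at 64, 65 and 65 in the empty vector libraries. SLNCR replicate 3 was highest at 9.68 CPM, and the other SLNCR libraries, at 6.37 and 6.82 CPM, lay within or just under the empty vector values of 6.38 to 7.16 CPM. The log2 fold change was 0.14 (SE 0.173, adjusted p = 0.601 in edgeR), and -0.05 with the GC correction (95% interval -0.38 to 0.29). Without SLNCR replicate 3 the uncorrected value was -0.06. There were 7.36, 7.10 and 5.71 ZEB1 reads per ZEB2 read in SLNCR replicates 1, 2 and 3, and 6.13, 5.95 and 6.32 in the empty vector libraries, which overlapped (difference of the log2 ratio 0.12, two-sided exact permutation p = 0.4). Per kilobase ZEB1 was 10.2 times as abundant as ZEB2 with SLNCR and 9.38 times with the empty vector.

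TCF4 (ENSG00000196628, chromosome 18, 55222331 to 55664787, minus strand) was counted at 375, 381 and 363 reads in the SLNCR libraries and at 319, 333 and 310 in the empty vector libraries. In CPM the groups overlapped, at 35.6, 36.6 and 40.4 with SLNCR against 31.8, 36.7 and 33.9 with the empty vector. The log2 fold change of 0.14 did not pass (SE 0.0850, 95% interval -0.04 to 0.32, adjusted p = 0.261 in edgeR). TCF4 has the lowest GC content of the tested members (38.2%), in a decile of tested genes of which 38.0% were higher with a median of 0.24. After the GC correction it stood at -0.06 (95% interval -0.22 to 0.10, adjusted p = 0.735 in edgeR). The ratio of ZEB1 to TCF4, genes of nearly equal GC content, was 1.31, 1.32 and 1.37 with SLNCR and 1.23, 1.16 and 1.33 with the empty vector, and the groups overlapped (two-sided exact permutation p = 0.3, added after the values were seen).

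**Figure D2:**
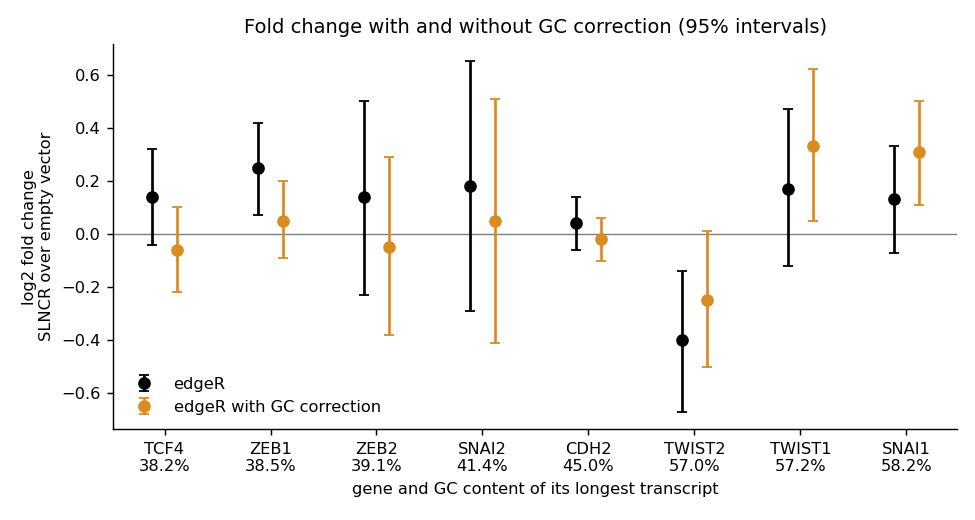
Log2 fold change (SLNCR over empty vector, y axis) of the 8 tested genes, ordered along the x axis by the GC content of the longest transcript, in edgeR without (black) and with (orange) a per-library GC correction. Bars are 95% intervals of the fit. The correction lowered the values of the 5 genes with up to 45.0% GC and raised those of the 3 genes with 57.0% GC or more, and SNAI1 and TWIST1 at 0.31 and 0.33 became the highest.

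**Figure D3:**
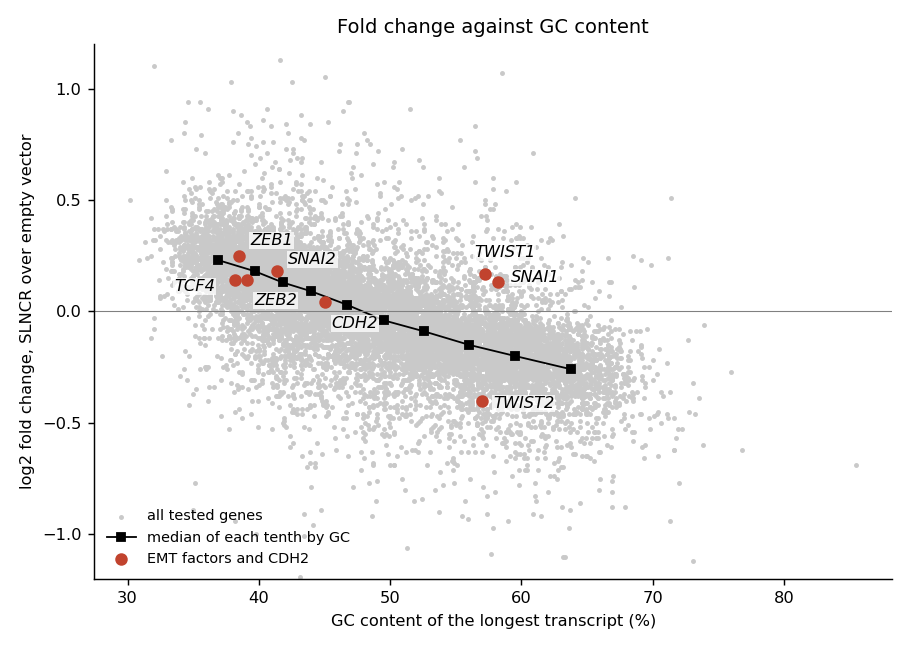
Log2 fold change (y axis) against GC content of the longest transcript in percent (x axis) for all tested genes (grey, 10 genes beyond 1.2 not drawn), with the median of each decile of genes by GC content (black) and the 8 tested members (red). ZEB1, ZEB2, TCF4, SNAI2 and CDH2 lie near the black line, TWIST1 and SNAI1 above it and TWIST2 below it.

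Over all tested genes, fold change and transcript GC content had r = -0.637 on the log2 scale (across genes, which are not independent replicates), and r = -0.00347 after the correction. The plot of fold change against GC content places the 8 genes in 2 sets. The AT-rich ZEB1, ZEB2, TCF4 and SNAI2 and the intermediate CDH2 had corrected log2 fold changes between -0.06 and 0.05. ZEB2, TCF4 and CDH2 turned sign with the correction. The GC-rich SNAI1, TWIST1 and TWIST2 had corrected values of 0.31, 0.33 and -0.25. Of the 8 genes 0 passed in the corrected fit and 2 (SNAI1 and TWIST1) had an unadjusted p below 0.05. The median of the 8 corrected values was 0.01. The transfected RNA did not pass in that fit either, at 3.38 (adjusted p = 0.054 in edgeR), so a count of 0 there says little about smaller changes.

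**Figure D4:**
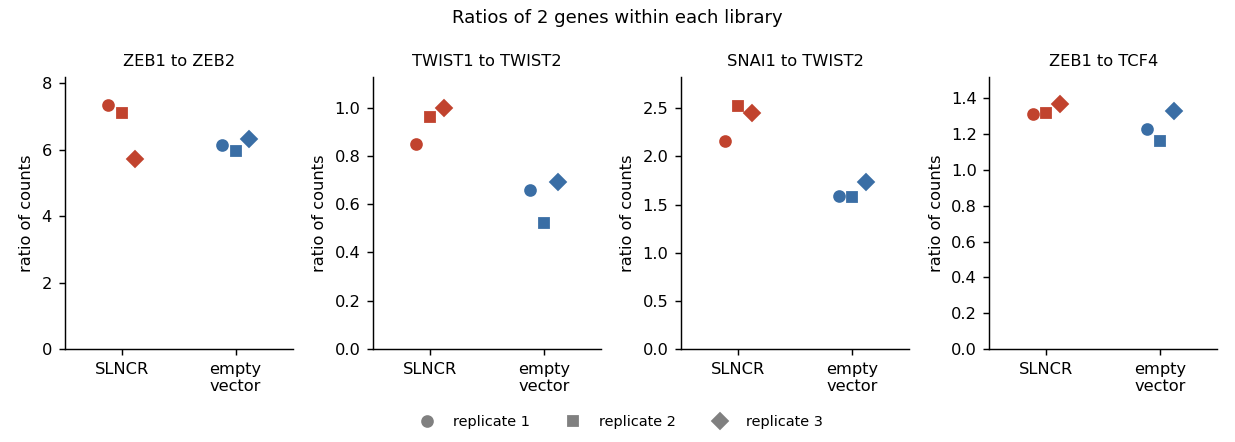
Ratio of the read counts of 2 genes within each library (y axis, linear from 0), with SLNCR libraries in red and empty vector libraries in blue, symbols marking replicates. TWIST1 to TWIST2 (0.85 to 1.0 with SLNCR, 0.52 to 0.69 with the empty vector) and SNAI1 to TWIST2 (2.16 to 2.52 against 1.58 to 1.73) separate the groups, while ZEB1 to ZEB2 and ZEB1 to TCF4 overlap. The ratios that separate the groups both hold TWIST2, which separates them in CPM by itself.

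Of the 2 member cadherins, CDH2 did not pass and CDH1 was not tested. CDH2 (ENSG00000170558, chromosome 18, 27950966 to 28177446, minus strand), whose product N-cadherin joins neural and mesenchymal cells, was counted at 3564, 3510 and 3087 reads in the SLNCR libraries and at 3214, 3082 and 3049 in the empty vector libraries. At 340 ± 3.24 CPM with SLNCR and 331 ± 9.67 CPM with the empty vector (SD, n = 3 each), the groups overlapped. CDH2 is the most deeply counted member, and its log2 fold change of 0.04 (SE 0.0477, adjusted p = 0.602 in edgeR) has a 95% interval of 0.957-fold to 1.10-fold. With the GC correction the value was -0.02, with an interval of 0.934-fold to 1.04-fold. CDH1 (ENSG00000039068, chromosome 16, 68737225 to 68835548, plus strand), the target of repression by these factors in epithelial cells, was counted at 1, 1 and 0 reads in the SLNCR libraries and at 1, 1 and 2 in the empty vector libraries. These are 2 reads in all with SLNCR and 4 with the empty vector, a ratio of 0.473 with a 95% counting interval (exact Clopper-Pearson) of 0.0428 to 3.30, so no difference in CDH1 was detectable at this depth. The interval covers counting error only. Over the same libraries CDH2 had 10161 reads with SLNCR and 9345 with the empty vector, and the ratio of CDH2 to CDH1 was not tested because CDH1 had a mean below 10 reads.

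Genes that act with the EMT factors were read from 9 lists chosen with earlier results of these data known. Of their 145 tested genes 24 passed (13 higher and 11 lower), which is 16.6%, against 16.5% of all tested genes. The helix-loop-helix partners of TWIST, the E proteins and the ID proteins that block them, had 5 of 6 members tested, of which 1 fell, 0 rose and 4 did not pass (median -0.13). TCF3, an E protein gene, fell by 0.22 on the log2 scale (SE 0.0669, adjusted p = 0.0355 in edgeR) and stood at 0.00 with the GC correction. The E protein gene TCF12 stood at 0.14, ID1 at -0.34, ID2 at 0.14 and ID3 at -0.13, and after GC correction at 0.00, -0.16, 0.23 and 0.03 in the same order. ID3 and ID1 were the most abundant of these per unit length, at 104 and 59.8 CPM per kilobase with SLNCR and 114 and 75.8 with the empty vector. ID4 was counted at 0, 0 and 0 reads with SLNCR and 1, 1 and 0 with the empty vector.

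Of 17 tested co-repressors and chromatin partners of SNAI and ZEB proteins, 1 rose, 2 fell and 14 did not pass (median -0.04). The remodeller gene SMARCA4 fell by 0.30 on the log2 scale (SE 0.0614, adjusted p = 0.0137 in edgeR) and CTBP1, a co-repressor that ZEB proteins recruit, fell by 0.29 (adjusted p = 0.0318 in edgeR). The Polycomb gene SUZ12 rose by 0.25 (adjusted p = 0.027 in edgeR). Corrected for GC content, SMARCA4, CTBP1 and SUZ12 stood at -0.08, -0.08 and 0.05. The deacetylase genes HDAC2 and HDAC1 stood at 0.19 and 0.02, and at 0.00 and 0.01 corrected.

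Of 21 tested kinases and ubiquitin pathway genes that set the stability of SNAI, TWIST and ZEB proteins, 2 rose, 0 fell and 19 did not pass (median 0.06). GSK3B, whose kinase marks Snail for destruction, rose by 0.22 (SE 0.0723, adjusted p = 0.0494 in edgeR) and the ubiquitin ligase gene MDM2 by 0.19 (SE 0.0515, adjusted p = 0.0249 in edgeR). They stood at 0.09 and 0.06 with the GC correction. The ligase gene STUB1 stood at -0.25, the kinase gene ATM at 0.17 and the deubiquitinase gene USP10 at 0.12, and after GC correction at 0.03, -0.01 and 0.09 in the same order.

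Within the cadherin-catenin complex, which anchors cadherins to actin, 1 of 11 tested genes rose, 0 fell and 10 did not pass (median 0.08). CBLL1, a ubiquitin ligase gene for E-cadherin, rose by 0.29 (SE 0.0889, adjusted p = 0.0383 in edgeR) and stood at 0.13 with the GC correction. The catenin genes CTNNA1 and CTNNB1 stood at -0.01 and -0.05, CTNND1 at -0.36 (SE 0.199), and the linker genes VCL and AFDN at 0.08 and 0.11. Corrected values were -0.01 for CTNNA1, -0.14 for CTNNB1, -0.38 for CTNND1, 0.02 for VCL and 0.08 for AFDN. Of 13 other cadherins with a row, 6 were tested: CDH4 fell by 0.34 (SE 0.113, adjusted p = 0.0461 in edgeR) and stood at -0.16 after the correction, while CDH7 at 0.01, CDH10 at 0.67 (SE 0.400), CDH12 at 0.19, CDH13 at 0.08 and CDH24 at -0.07 did not pass. With the GC correction CDH7 stood at -0.22 (95% interval -0.36 to -0.07, unadjusted p = 0.00524, adjusted p = 0.148 in edgeR), CDH10 at 0.53, CDH12 at 0.11, CDH13 at -0.02 and CDH24 at 0.19. The epithelial cadherin gene CDH3 was counted at 4, 1 and 3 reads with SLNCR and at 0, 2 and 2 with the empty vector.

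Among epithelial genes that EMT factors hold down, 15 of the 33 with a row were tested, and 1 rose, 2 fell and 12 did not pass (median -0.06). KRT8 and KRT18, keratins of simple epithelia, fell by 0.31 and 0.29 (SE 0.0687 and 0.0562, adjusted p = 0.0143 and 0.0137 in edgeR), and the desmosomal cadherin gene DSG2 rose by 0.24 (SE 0.0563, adjusted p = 0.0152 in edgeR). The keratin gene KRT7 stood at -0.47 (SE 0.169, adjusted p = 0.0668 in edgeR). None of these 4 passed with the GC correction, where KRT8 stood at -0.16, KRT18 at -0.15, DSG2 at 0.12 and KRT7 at -0.23 (adjusted p = 0.121, 0.102, 0.193 and 0.442 in edgeR). The other 18 genes had few reads in both groups. Among mesenchymal genes 36 of 40 were tested, of which 4 rose, 3 fell and 29 did not pass (median -0.02). The actin regulator gene CALD1 rose by 0.30 and the hyaluronan receptor gene CD44 by 0.20, while COL6A1, a collagen gene, fell by 0.27 and the intermediate filament gene VIM by 0.17 (adjusted p = 0.0139, 0.0159, 0.0159 and 0.0328 in edgeR). LGALS1 stood at -0.05. After GC correction CD44 stood at 0.14 (adjusted p = 0.076 in edgeR), VIM at -0.18, CALD1 at 0.17, COL6A1 at -0.02 and LGALS1 at 0.16. The others that passed were NT5E and WWTR1, which rose, and TAGLN, which fell, and which stood at 0.12, 0.02 and -0.15 with the correction.

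Of 25 tested signals and regulators upstream of EMT factors, 4 rose, 2 fell and 19 did not pass (median 0.00). HIF1A, the hypoxia factor gene, rose by 0.24, HMGA2, an architectural chromatin protein gene, by 0.17 and QKI, a splicing regulator gene, by 0.22, while TGFB1, the classical inducer of EMT, fell by 0.23 and the AP-1 gene FOSL1 by 0.15 (adjusted p = 0.0181, 0.026, 0.0307, 0.0413 and 0.0444 in edgeR). SMAD2 was the other gene that rose. After correction these 6 stood between -0.01 and 0.05. Of 9 tested melanocytic genes, the state in which ZEB2 and SNAI2 are known, 0 passed in edgeR or DESeq2 and 1 had an unadjusted p below 0.05 in edgeR (median -0.08), with MITF at 0.16, TFAP2A at -0.23, MLPH at -0.19 and CDK2 at -0.08, and at 0.03, -0.20, -0.07 and -0.02 in the same order after GC correction. The medians of the 9 lists after GC correction lay between -0.05 and 0.05, and 0 of the 145 tested genes passed in edgeR with it, with 20 at an unadjusted p below 0.05. The transfected RNA did not pass in that fit either.

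**Figure D5:**
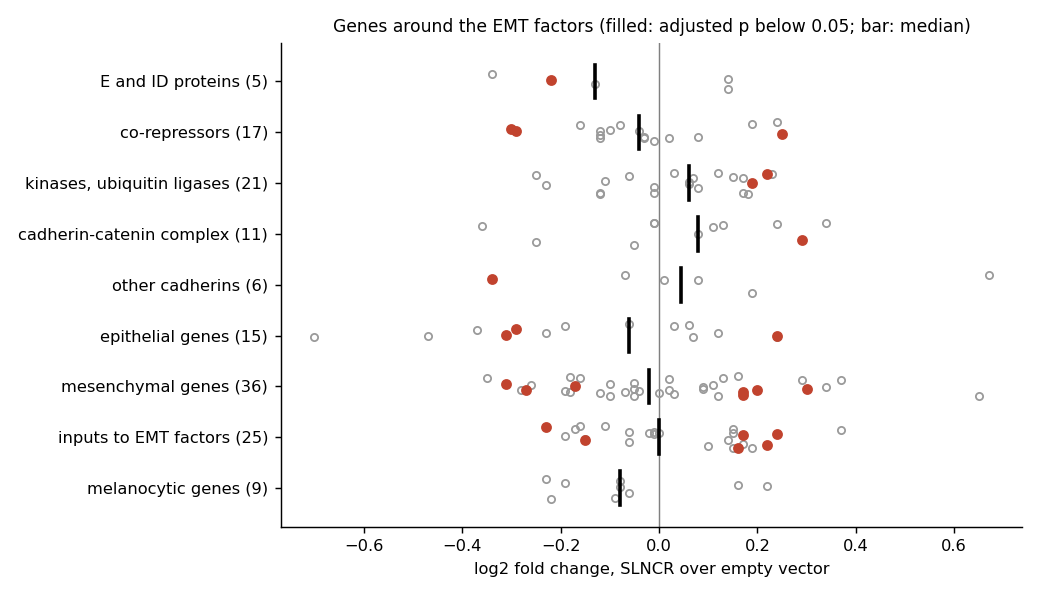
Log2 fold change (x axis, SLNCR over empty vector) of the tested genes of 9 lists around the EMT factors (rows, number tested in parentheses), without GC correction. Filled points passed at an edgeR adjusted p of 0.05, open points did not, and bars mark medians, which lie between -0.13 and 0.08.

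Patterns across the 6 libraries were compared as a description. The pairs of members with the closest log2 CPM were TCF4 with CDH2 (Pearson r = 0.91), ZEB1 with TCF4 (0.88) and ZEB1 with CDH2 and ZEB2 with TCF4 (both 0.80), while the most negative r of the 28 pairs was that of ZEB1 with TWIST2 (-0.89). TWIST1 and TWIST2 had r = -0.73, and SNAI1 and SNAI2 0.69. The libraries share depth, group and base composition within each value. Among 10624 genes with a mean of at least 50 reads, those closest to SNAI1 were LSM6 (r = 0.991), FOCAD (0.985) and SH3D19 (0.980), and those closest to CDH2 were PDE10A (0.994), RANBP17 (0.993) and IVNS1ABP (0.983). They were picked as the highest of many correlations over 6 points.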

How the data were processed

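RNA of 3 SLNCR and 3 empty vector cultures of A375 cells was depleted of ribosomal RNA and sequenced from both ends at 150 bases, per the labels' protocols. The authors deposited read counts per gene without normalization (whole numbers, with totals that differ between libraries). The submitters' processing notes name build GRCh38 and the tools STAR, cutadapt and DESeq2 1.24.07, with counter, annotation and strand setting not given in the sources used here. Columns headed S and E were read as SLNCR and empty vector, by initial and replicate number. Of 20238 rows, the 1857 that name no gene (2.15% to 2.59% of counts) and 63 that repeat a neighbour's counts were left out, which gave 18318 genes. Total counts per library were 9287450 to 10822083.

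Groups were compared with edgeR 4.0.16 (R 4.3.3) over 12797 genes: quasi-likelihood F-test, TMM factors, default filterByExpr filter, two-sided, Benjamini-Hochberg adjustment over all tested genes, threshold 0.05. Log2 CPM values used a prior count of 2. Standard errors came from the fold change and its F statistic, and 95% intervals from these with the degrees of freedom of the fit. The GC correction subtracted a loess curve (span 0.5) per library. GC content and coordinates came from GENCODE release 29. Alternatives were DESeq2 1.42.0, other size factors, no filter, the replicate number as a block and leaving out each library, the last also with the GC correction (added after the values were seen). On simulated counts with 200 changed genes (12767 genes run, no GC trend), the test called 90% of genes changed by 0.5 and 100% of those changed by 1 (log2), with 1 false call. With a simulated GC trend (12756 genes run) the uncorrected fit made 1296 calls, 1105 of them false. The GC-corrected fit of the same counts made 195 calls, 4 of them false. The simulation gave every gene the same dispersion (biological coefficient of variation 5.65%). Its trend was the same straight line in every SLNCR library and absent from the empty vector libraries, while the deposited slopes differed between libraries. A curve fitted on GC content has to remove such a trend, so these calls do not show how the correction acts on the deposited libraries. No rate was computed for changes below 0.5. In the deposited data the GC-corrected fit called 2 of 12797 genes. The transfected RNA was not called there (log2 fold change 3.38, adjusted p = 0.054 in edgeR). Whether the simulated rates hold for the deposited libraries was not tested.

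The members, lists and tests were chosen with earlier results of these data known. All 9 members are named, and of each list all tested genes (up to 8) or else the 4 with the smallest adjusted p and the 2 most abundant per kilobase. CDH3, ID4, NT5E, WWTR1, TAGLN and SMAD2 were named after their values were seen, as were the ratios other than ZEB1 to ZEB2.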

Additional observations from a re-analysis of the deposited data

How the results depend on the processing

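At these depths, members with under about 100 reads (ZEB2, SNAI2, TWIST1) have wide intervals. The count of changed genes, 2112 as reported, was 3523 with the replicate number as a block, 2 with the GC correction, 408 with both, 1 to 3366 without each library and 0 to 668 without each library under the GC correction (0, 1, 2, 4, 101 and 668). It was 1, 1 and 2 without SLNCR replicate 1, empty vector replicate 1 and empty vector replicate 2. Members changed numbered 1 (TWIST2) as reported and 2 (with ZEB1) under size factors in the manner of DESeq2, without the filter and with the block. They numbered 0 with the GC correction, with or without the block, 0 with DESeq2, 0 to 2 without each library, and 0 in each fit without 1 library under the GC correction. The adjusted p of TWIST2, TWIST1, ZEB2 and SNAI2 was not available from DESeq2, where the unadjusted p was below 0.05 for 2 members, 0.0277 for TWIST2 and 0.0163 for ZEB1. ZEB1 passed at 0.25, 0.26 and 0.25 with those size factors, without the filter and with the block (edgeR adjusted p = 0.049, 0.0137 and 0.0129). TWIST2 did not pass with the GC correction, at -0.25 without and with the block. Signs turned with the GC correction, without and with the block alike, for ZEB2 (-0.05), TCF4 (-0.06) and CDH2 (-0.02). Of the 145 list genes, 24 passed as reported, 38 with the block, 0 with the GC correction and 4 (CD44, KRT8, KRT18 and VIM) with the GC correction and the block. The labels do not say whether replicate numbers pair the libraries, and the values do not settle it. Deviations of same-numbered libraries correlated at 0.0414, 0.0217 and 0.195 (replicates 1 to 3). SLNCR replicates 1 and 3 correlated best with their own number, and SLNCR replicate 2 with empty vector replicate 1 (0.143).

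Without each library, ranges of log2 fold changes, first uncorrected and then with the GC correction, were 0.18 to 0.30 and 0.02 to 0.10 for ZEB1, -0.06 to 0.25 and -0.21 to 0.06 for ZEB2 (-0.08 without empty vector replicate 1), -0.11 to 0.37 and -0.26 to 0.23 for SNAI2, -0.47 to -0.34 and -0.31 to -0.20 for TWIST2 (-0.23 and -0.29 without SLNCR replicate 2 and empty vector replicate 1), 0.09 to 0.19 and -0.09 to -0.01 for TCF4 (-0.08 without SLNCR replicate 2 or 3), and 0.01 to 0.05 and -0.04 to 0.00 for CDH2. List medians with the GC correction moved to 0.00 (E and ID proteins), -0.01 (co-repressors), 0.02 (kinases and ligases), 0.03 (cadherin-catenin complex), 0.05 (epithelial) and 0.02 (mesenchymal). Without each library they were -0.07 to -0.03 for co-repressors, 0.05 to 0.09 for kinases and ligases, -0.02 to 0.09 for the cadherin-catenin complex, -0.11 to -0.03 for epithelial genes, -0.05 to 0.01 for mesenchymal genes, -0.01 to 0.02 for upstream inputs and -0.16 to -0.07 for melanocytic genes. The cause of these shifts was not tested.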
